A study of Homo sapiens with 8 samples.

Results

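The genes described here encode the nuclear subunits of the mitochondrial respiratory chain and ATP synthase. They were found by name in the deposited count table: NADH dehydrogenase (NDUFA, NDUFB, NDUFC, NDUFS and NDUFV followed by digits), SDHA to SDHD, names that start with UQCR or ATP5, and COX names numbered 4 to 8. Of 33045 gene names, 91 matched these patterns. Removing 8 with a pseudogene suffix and 5 with under 10 reads in every library (COX4I2, COX6A2, COX7A1, COX7B2 and COX8C) left 78. They comprised 36 subunits of complex I, 4 of complex II, 7 of complex III, 12 of complex IV (NDUFA4 was placed here), 15 of complex V and 4 names that are no subunit. All 78 passed the filter on low counts, among 16060 genes tested in all.

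In the study, a pair of acute myeloid leukemia cell lines received vehicle or 0.5 µM of DDP38003, which inhibits LSD1, a histone demethylase (below, LSD1i), before RNA sequencing. KASUMI-1, which carries the RUNX1::RUNX1T1 fusion, is called sensitive to LSD1i and was harvested at 6 and 72 h. THP-1, of monocytic type and with a fusion of KMT2A, is called resistant and was harvested at 24 and 72 h. The series text ties these times to changes in mTOR that followed the inhibitor in each line. The 8 libraries each held another combination of line, agent and time, so a line has 2 pairs of LSD1i and vehicle libraries at 2 different times, and sensitivity is represented by 1 line on each side. Nothing in the labels says whether the libraries of a line came from separate cultures. P-values therefore measure only the spread between these libraries. For the LSD1i response, that spread is how far the 2 pairs of a line differ, taken over both lines together. For vehicle compared between lines, that spread is how far the 2 vehicle libraries of a line differ, again over both lines. edgeR also draws each gene's spread toward a trend over all genes. That trend had median prior degrees of freedom of 15.58 (8.182 in the vehicle fit), against 2 residual ones, so it weighed more than a gene's own libraries. Since harvest times differ within each line, effects of time cannot be separated there from noise, which may be technical. Library totals ran from 23722972 counts (KASUMI-1 vehicle, 72 h) to 45970766 (KASUMI-1 LSD1i, 72 h). KASUMI-1 libraries held 1137 to 1689 CPM (counts relative to library size, which TMM factors adjust between libraries) summed over RUNX1T1, KIT and CD34, against 3.42 to 15.8 CPM in THP-1. The erythroid genes HBB and HBG1 were at 0 reads in all libraries.

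Oxidative phosphorylation takes electrons from NADH at complex I and from succinate at complex II, passes them through complex III to complex IV, which reduces oxygen, and uses the resulting proton gradient to make ATP at complex V. Apart from complex II, these complexes join subunits encoded in the nucleus with subunits encoded in mitochondrial DNA. Acute myeloid leukemia cells are known for a strong reliance on this pathway. Promoters of the nuclear genes are known for sites of NRF1, of the ETS factor GABP and of YY1.

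Promoter windows of RefSeq (GRCh38.p14, 250 bases before to 50 after each gene's start) were found in full for 64 of the 78 genes. The ETS core CCGGAAG, read on both strands, was in 20 of the 64 windows (31.2%), against 12.8% of windows of all protein-coding genes. The YY1 letters AAGATGGCG were in 8 windows (12.5%, against 2.41%) and the NRF1 palindrome (GCGCA followed by its reverse complement) in 4 (6.25%, against 1.5%). Among the genes that fell with LSD1i in KASUMI-1, the 8 with the ETS core and 1 of the 2 with the NRF1 palindrome, NDUFB4, are shown, each as 60 bases before the start, 5′ to 3′ on the gene's strand. Capitals mark the ETS core on either strand, and in NDUFB4 the NRF1 palindrome.
NDUFA13 (chr19:19516165-19516224, plus strand): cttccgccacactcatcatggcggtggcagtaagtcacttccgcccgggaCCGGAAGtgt
NDUFB7 (chr19:14572067-14572126, minus strand): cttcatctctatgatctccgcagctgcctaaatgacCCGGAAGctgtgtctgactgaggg
NDUFA1 (chrX:119871759-119871818, plus strand): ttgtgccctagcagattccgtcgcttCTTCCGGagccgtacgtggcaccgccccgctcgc
NDUFS3 (chr11:47578965-47579024, plus strand): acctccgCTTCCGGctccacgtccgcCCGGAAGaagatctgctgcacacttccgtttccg
NDUFB4 (chr3:120596152-120596211, plus strand): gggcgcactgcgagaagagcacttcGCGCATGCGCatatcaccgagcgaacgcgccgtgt
UQCRQ (chr5:132866562-132866621, plus strand): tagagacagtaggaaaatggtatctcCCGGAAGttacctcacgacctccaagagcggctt
UQCR (chr19:1605526-1605585, minus strand): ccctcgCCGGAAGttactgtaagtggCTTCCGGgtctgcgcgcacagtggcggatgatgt
COX6A1 (chr12:120438053-120438112, plus strand): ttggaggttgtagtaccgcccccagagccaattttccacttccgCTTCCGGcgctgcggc
ATP5H (chr17:75047037-75047096, minus strand): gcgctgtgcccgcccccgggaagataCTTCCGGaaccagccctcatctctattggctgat
NDUFS3 and UQCR each had the ETS core at 2 places in the printed stretch. Among members that fell in KASUMI-1 the core was in 8 of 22 windows (36.4%), and among the other members in 12 of 42 (28.6%). Not shown are the other fallen gene with the palindrome, NDUFA8, where it spans the start, and the 3 fallen genes with the YY1 letters, which lie after the start. A match is a run of letters, not evidence of binding.

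The members took 1.29% to 1.85% of all counts in a library. In KASUMI-1 the share was 1.56% with vehicle and 1.39% with LSD1i at 6 h, and 1.68% and 1.29% at 72 h. In THP-1 it was 1.85% and 1.84% at 24 h, and 1.68% and 1.77% at 72 h. Levels compared between genes are given as CPM per kb of exon, averaged over the 8 libraries. The highest level in complex I was that of NDUFS5 (510.1 CPM per kb) and the lowest that of NDUFA11 (19.2 CPM per kb). In complex II, SDHB stood highest (138 CPM per kb) and SDHA lowest (27.9 CPM per kb). UQCRH led complex III (1364 CPM per kb) and UQCRFSL1 was lowest (77.7 CPM per kb). UQCRFSL1 was taken to be UQCRFS1 because 4 of its 6 neighbours in the table are those of UQCRFS1, and that identity is inferred. The complex IV subunit listed as COX7, whose neighbours in the table are those of COX7C, had 1259 CPM per kb, whereas COX6B2, a testis-type form, had 0.24 CPM per kb with 9 to 25 reads per library. Complex V was led by ATP5B, the catalytic beta subunit (739 CPM per kb), and ATP5D, the delta subunit of the F1 head, was lowest (41.5 CPM per kb). Reads that map to several places were not counted, so members with processed pseudogene copies may be undercounted.

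With LSD1i, 26 of 78 respiratory chain genes fell and 0 rose in KASUMI-1 by edgeR's quasi-likelihood test over the 2 pairs, against 5.09% of all genes tested that fell and 7.02% that rose. At an unadjusted p under 0.05 the counts were 47 lower and 1 higher, against 4329 of 16060 genes tested in either direction. DESeq2 called 33 members lower and 0 higher, and its share over all genes was not counted here or below. The median fitted log2 change (LSD1i over vehicle, in all that follows) was -0.33 over the members and 0.02 over all genes tested. The calls fell on 16 of 36 complex I subunits, 0 of 4 in complex II (edgeR; 1 lower and 0 higher at an unadjusted p under 0.05, and 0 by DESeq2, with 3 of the 4 fitted changes below 0), 3 of 7 in complex III, 2 of 12 in complex IV and 5 of 15 in complex V. A log2 ratio below 0 in both pairs was found for 66 members, above 0 in both for 3, and of opposite sign for 9. In single pairs 93.6% (6 h) and 87.2% (72 h) of members were below 0, against 50.1% and 44.5% of all genes tested. Both LSD1i libraries lay below both vehicle libraries for 61 members (78.2%), against 19.9% of all genes tested. In bulk RNA, fewer cells of a kind and less RNA per cell cannot be told apart. Monocyte markers moved with LSD1i as well: 3 of 7 rose in KASUMI-1 and 4 of 7 in THP-1, and lysozyme went from 29.6 and 38.1 CPM to 136 and 415 CPM in KASUMI-1 (6 and 72 h). Summed over the 7 markers, of which MPO was the most abundant in KASUMI-1, the level was 6387 to 9303 CPM in the vehicle and 7220 to 8543 CPM in the LSD1i libraries of KASUMI-1, while CD14 stayed between 0 and 0.09 CPM there. The part of this in the result was not tested.

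**Figure D1:**
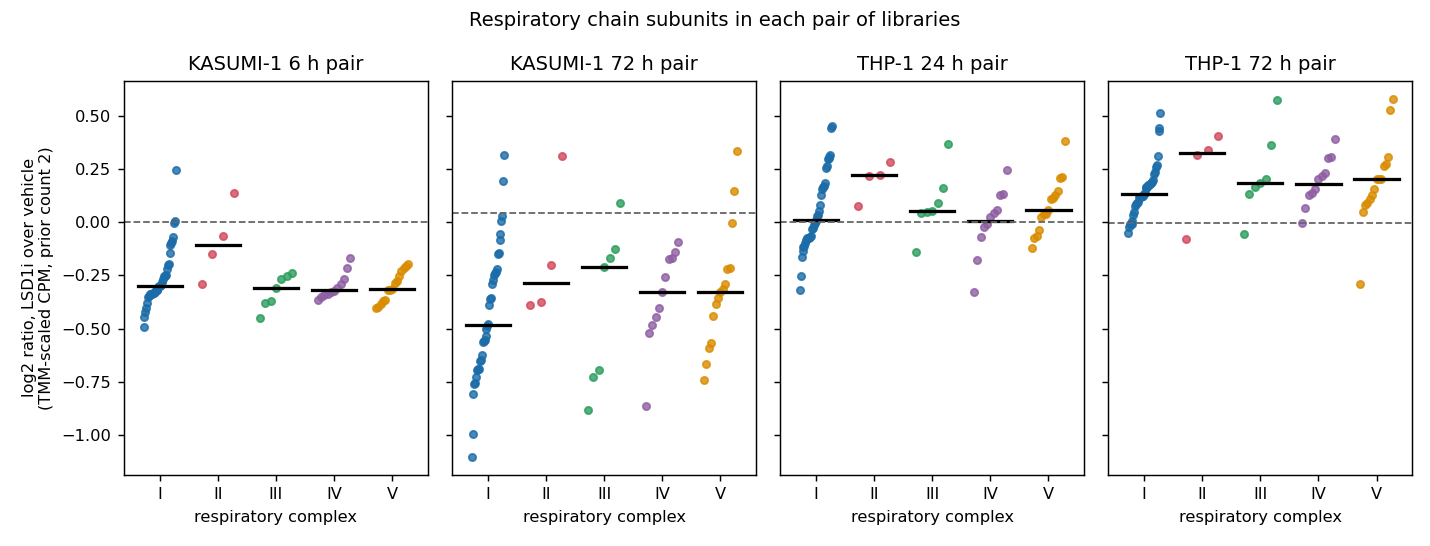
Log2 ratio of LSD1i over vehicle for each respiratory chain subunit (points, vertical axis, from TMM-scaled CPM, prior count 2) by complex (horizontal axis) in the 4 pairs of libraries, each with 1 library per agent. Black bars are the median of a complex and the dashed line is the median of all genes tested. COX6B2, at very low counts, is not drawn. In KASUMI-1 most points lie below the line (complex I median -0.30 at 6 h and -0.48 at 72 h), and in the THP-1 72 h pair most lie above it (complex I median 0.13).

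Gene positions from here on are those of the deposited table, on NCBI36. Within complex I, the NADH-oxidising and quinone-reducing core has 7 nuclear subunits, of which 4 fell in KASUMI-1. NDUFS8, which holds iron-sulfur clusters, was at 74 and 91.8 CPM in the vehicle and 55.9 and 54.1 CPM in the LSD1i libraries (6 and 72 h). Its fitted log2 change was -0.58 ± 0.13 (SE, adjusted p = 0.00796 by edgeR's test). NDUFS3, NDUFS7 and NDUFV1, the subunit that binds NADH, also fell, with log2 changes of -0.40, -0.44 and -0.45. The other 3 did not pass the test, among them NDUFV2 with a log2 change of -0.29 and NDUFS1 with -0.07.

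Of the 29 accessory subunits of complex I, 12 fell in KASUMI-1. NDUFA13 (chr19:19487799-19500007, plus strand), also known as GRIM-19, was the member with the largest fall: 199 and 302 CPM with vehicle and 156 and 141 CPM with LSD1i, a log2 change of -0.73 ± 0.15 (SE, adjusted p = 0.00614). Its groups did not overlap, and the log2 ratio was -0.35 at 6 h and -1.10 at 72 h. NDUFB7 (chr19:14537892-14543886, minus strand), which lies on the intermembrane space side, went from 75.9 and 106 CPM to 56.6 and 52.9 CPM, a log2 change of -0.71 ± 0.14 (SE, adjusted p = 0.00379). NDUFB2 (chr7:140042950-140052911, plus strand), of the membrane arm, went from 152 and 181 CPM to 120.0 and 104 CPM (-0.57 ± 0.14 SE, adjusted p = 0.0114), and NDUFA2 from 98 and 112 CPM to 72 and 69.3 CPM (-0.57 ± 0.12 SE, adjusted p = 0.00699). In all 3 of these genes both LSD1i libraries were below both vehicle libraries. NDUFB4 had the lowest ratio of all members in the 6 h pair (-0.49, with -0.36 at 72 h). NDUFA5 stood on the other side, with log2 ratios of 0.24 and 0.31, and its log2 change of 0.28 ± 0.13 (SE, adjusted p = 0.179) did not pass the test.

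Complex II, the succinate dehydrogenase that also serves the TCA cycle and is encoded in the nucleus alone, had no member that passed the test in KASUMI-1. SDHB, the iron-sulfur subunit, was at 173 and 169.8 CPM with vehicle and 142 and 131 CPM with LSD1i (-0.33 ± 0.12 SE, adjusted p = 0.0898). SDHA, which holds the flavin, had log2 ratios of 0.14 at 6 h and -0.39 at 72 h, that is of opposite sign. The membrane anchors SDHC and SDHD had log2 changes of -0.17 and 0.12. SDHD was at 110.0 and 83.1 CPM with vehicle and 105 and 103 CPM with LSD1i, lower at 6 h and higher at 72 h.

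In complex III, which passes electrons from ubiquinol to cytochrome c, UQCRQ, UQCR (now called UQCR11) and UQCRC1 fell. UQCRQ (chr5:132230218-132232435, plus strand), a small subunit of the membrane part, was at 138 and 159 CPM with vehicle and 101 and 85.9 CPM with LSD1i (-0.67 ± 0.13 SE, adjusted p = 0.004). UQCR (chr19:1548180-1556431, minus strand) went from 176 and 192 CPM to 136 and 119 CPM (-0.53 ± 0.13 SE, adjusted p = 0.013). The core proteins parted: UQCRC1 had a log2 change of -0.50 ± 0.14 (SE, adjusted p = 0.0239) and UQCRC2 of -0.07 ± 0.13 (SE, adjusted p = 0.773). UQCRC2 was lower at 6 h (-0.24) and higher at 72 h (0.09). UQCRFSL1 was below vehicle in both pairs (-0.38 and -0.13) and did not pass the test.

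In complex IV, cytochrome c oxidase, COX6A1 and COX7A2 fell. COX6A1 (chr12:119360287-119362915, plus strand), the form found outside heart and muscle, went from 399 and 528 CPM with vehicle to 326 and 291 CPM with LSD1i (-0.58 ± 0.15 SE, adjusted p = 0.0166). COX7A2, the counterpart of the muscle form COX7A1, went from 257 and 272 CPM to 202 and 189 CPM (-0.43 ± 0.13 SE, adjusted p = 0.0416). COX4I1 was at 485 and 505 CPM with vehicle and 418 and 472 CPM with LSD1i (-0.16 ± 0.14 SE, adjusted p = 0.523). COX6B1, COX7B and COX8A had log2 changes of -0.17, -0.36 and -0.33, none past the test. All 12 complex IV members were below vehicle in the 72 h pair, and 11 in the 6 h pair, COX6B2 with its few reads being the other.

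Complex V makes ATP in a soluble F1 head that is driven by a membrane ring of c subunits. In the F1 head ATP5D fell (-0.47 ± 0.14 SE, adjusted p = 0.0388), a change that was 0.0555 with exon length and GC trends taken out, whereas the abundant alpha and beta subunits ATP5A1 and ATP5B had log2 changes of -0.10 and -0.27 that did not pass the test. The c subunit is encoded by ATP5G1, ATP5G2 and ATP5G3, which give the same mature protein. ATP5G1 (chr17:44325147-44328229, plus strand) was at 176 and 164 CPM with vehicle and 133 and 98 CPM with LSD1i (-0.57 ± 0.13 SE, adjusted p = 0.0085), and ATP5G3 (chr2:175749237-175754736, minus strand) at 588 and 575 CPM and 451 and 381 CPM (-0.49 ± 0.14 SE, adjusted p = 0.0298). ATP5G2 (chr12:52345212-52356779, minus strand) was at 591 and 495 CPM and 473 and 624 CPM, lower at 6 h and higher at 72 h, with a fitted change of 0.01. At 72 h the log2 ratios of the 3 genes were therefore -0.74, 0.33 and -0.59. The peripheral stalk subunit ATP5H and the membrane subunit ATP5J2 fell too (-0.41 and -0.44). Processed copies of c-subunit genes are known, so the division of reads among them is uncertain.

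Seen pair by pair, 27 members lay below vehicle by a log2 ratio of at least 0.32 with LSD1i at 6 h in KASUMI-1 and 0 above it by as much, counting only genes whose 95% counting interval excluded equality (12.2% of genes tested that way were lower and 12.6% higher). At 72 h the counts were 43 and 3, with 20.8% and 24.9% of all genes. The 3 higher ones were ATP5G2, COX7A2L and ATP5S. At 1.5-fold, 0 members were lower and 0 higher at 6 h (1.71% and 3.78% of all genes), and 19 lower and 0 higher at 72 h (8.24% and 11.6%). With 1 library per agent there is no test of a single pair, and the interval covers counting error only. At 6 h the medians were -0.30, -0.11, -0.31, -0.32 and -0.31 for complexes I to V. At 72 h they were -0.48, -0.29, -0.21, -0.33 and -0.33, with a range over members from -1.10 (NDUFA13) to 0.54 (ATP5S).

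The members' median in KASUMI-1 was lower in the 72 h pair (-0.36, against -0.29 at 6 h), whose vehicle library was the shallowest. No call can be tested on 1 KASUMI-1 pair, because that leaves 1 library per agent and takes the spread from THP-1 alone. Without the 72 h pair 74 of 78 had a log2 change below 0, with a median of -0.30. Without the 6 h pair 67 did, with a median of -0.36. Without the THP-1 24 h pair 9 fell in KASUMI-1, and without the THP-1 72 h pair 13. In those 2 fits the spread comes from the KASUMI-1 pairs alone. A fit with no term for the pairs called 0, with 35 lower at an unadjusted p under 0.05.

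Exon length and GC content moved with the result. The members are short, with a median exon length of 966 bases against 2712 for all genes tested. Among other genes at an average log2 CPM of 1 or more, the median fitted change in KASUMI-1 was -0.19 for exon lengths up to 1 kb, -0.16 from 1 to 2 kb, -0.0035 from 2 to 4 kb and 0.15 over 4 kb. The members' medians in the first 3 of these classes were -0.39 (40 genes), -0.29 (25 genes) and -0.17 (13 genes). Up to 1 kb, 17 of 40 members were called lower and 20.3% of the other genes, and from 1 to 2 kb 7 of 25 members and 14% of the others. GC content was that of a gene's longest protein-coding GENCODE transcript, or of its longest transcript where none was coding. In 3 equal classes of GC content, the other genes had medians of 0.18, -0.01 and -0.20 from low to high. The members' medians in these classes were -0.23, -0.33 and -0.38. In each of these 6 classes the members' median was the lower. Fits that took a smooth trend in exon length out of every library, chosen after seeing the data, called 2 members lower in KASUMI-1, UQCRQ and ATP5G3, with a median of -0.13 and 61 of 78 below 0. With GC content taken out as well, 3 were lower (ATP5E in addition), the median was -0.08 and 52 were below 0. These trends were interpolated between fitted points. Evaluated directly at each gene, the length trend left 3 members lower (NDUFB7 in addition), with a median of -0.16, and both trends the same 3 as before. Across the 78 genes, Spearman's rho with exon length was 0.498 for the 6 h ratio and 0.272 for the 72 h ratio. With GC content it was -0.047 and -0.523. These are descriptions across genes that share libraries.

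**Figure D2:**
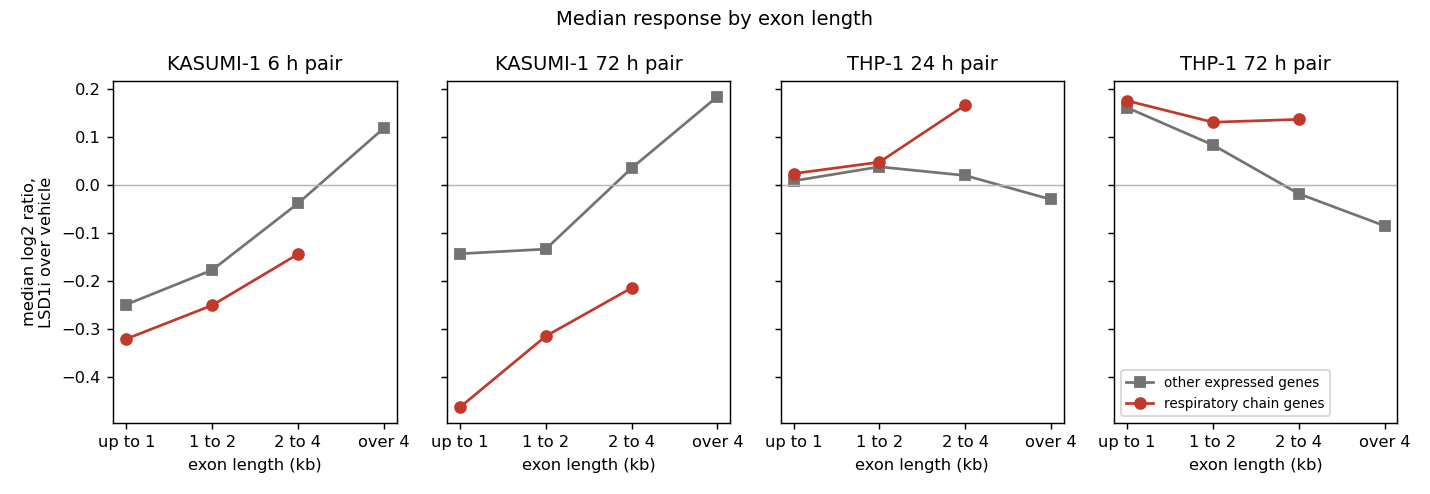
Median log2 ratio of LSD1i over vehicle (vertical axis) by exon length in kb (horizontal axis) for the respiratory chain genes (circles) and for other genes at an average log2 CPM of 1 or more (squares), in the 4 pairs. In KASUMI-1 both series rise with length and the circles lie below the squares (at 72 h, -0.46 against -0.14 up to 1 kb). In the THP-1 72 h pair the squares fall with length, from 0.16 to -0.09.

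In THP-1 the members' median lay slightly above vehicle with LSD1i. ATP5L and UQCR rose, 2 of 78, and 0 fell by edgeR's test, against 6.51% of all genes that rose and 2.85% that fell, 9.36% in all. At an unadjusted p under 0.05 the counts were 12 higher and 0 lower, against 3172 of 16060 genes tested in either direction. DESeq2 called 2 members higher and 0 lower. The median fitted change was 0.10 over the members and -0.01 over all genes tested. Log2 ratios were above 0 in both pairs for 45 members, below 0 in both for 6 and of opposite sign for 27. In single pairs 37.2% (24 h) and 12.8% (72 h) of members were below 0, against 49.8% and 50.5% of all genes tested. Both LSD1i libraries lay above both vehicle libraries for 36 members (46.2%), against 21.2% of all genes tested. ATP5L, subunit g of the ATP synthase membrane part, was at 269 and 243 CPM with vehicle and 350.1 and 363 CPM with LSD1i (24 and 72 h), a log2 change of 0.48 ± 0.14 (SE, adjusted p = 0.0348). UQCR was at 135 and 124 CPM and 174 and 185 CPM (0.47 ± 0.13 SE, adjusted p = 0.0249). Leaving out either THP-1 pair leaves 1 library per agent in that line, so such a fit gives no test of these genes. Neither was called when the exon length trend was taken out. With the GC trend out as well, 1 of the 2 was called, or 2 with the trends evaluated directly. The monocyte markers, summed over the same 7 genes, went from 746 to 1117 CPM with vehicle to 5193 to 11399 CPM with LSD1i in THP-1. Lysozyme made up most of this sum, at 886 and 527 CPM with vehicle and 4843 and 11086 CPM with LSD1i (24 and 72 h). CD14, CSF1R, ITGAM and CD33 were also above vehicle in both pairs, while FCGR1A and MPO were below it in both. The part of these markers in the ratios above was not tested.

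By pair, 4 members were higher by a log2 ratio of at least 0.32 in THP-1 at 24 h (UQCR, ATP5L and NDUFA11 among them) and COX7B alone was that much lower, against 13.6% and 8.86% of all genes. At 72 h 11 were higher and 0 lower, against 15.8% and 16.3%. These were ATP5E, ATP5L, COX7, COX7A2L, NDUFA12, NDUFB2, NDUFC2, SDHB, SDHD, UQCR and UQCRH. At 1.5-fold, 0 members were lower or higher at 24 h (2.46% and 6.55% of all genes) and 0 at 72 h (5.54% and 7.18%). COX7B was at 351 and 245 CPM with vehicle and 279 and 288 CPM with LSD1i, lower at 24 h and higher at 72 h. Complex II had the highest medians, 0.22 at 24 h and 0.33 at 72 h, over 4 genes. SDHC, for example, was at 131 and 131 CPM with vehicle and 153 and 163 CPM with LSD1i (0.27 ± 0.12 SE, adjusted p = 0.217). ATP5D went the other way at 72 h (-0.29), after 0.06 at 24 h.

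The response was lower in KASUMI-1 than in THP-1 for 74 of 78 members, against 7690 of 16060 genes tested. With the exon length trend taken out it was lower for 61 members, and with the GC trend as well for 55. The test of the difference was passed by 9 members, all lower in KASUMI-1, against 3.07% of all genes lower and 2.62% higher, 5.69% in all. At an unadjusted p under 0.05 the counts were 44 lower and 1 higher, against 3414 of 16060 genes tested in either direction. DESeq2 called 19 members lower and 0 higher. UQCR had the largest difference (-1.0 ± 0.18 SE, adjusted p = 0.00389), having fallen in one line and risen in the other. NDUFB2 followed (-0.98 ± 0.19 SE, adjusted p = 0.00622), at 122 and 110.4 CPM with vehicle and 151 and 157 CPM with LSD1i in THP-1. NDUFA11, a membrane subunit, had a difference of -0.81 ± 0.22 (SE, adjusted p = 0.0406), with 14.3 and 18.7 CPM against 11.6 and 11.6 CPM in KASUMI-1 and 13.3 and 16.5 CPM against 18.3 and 18.5 CPM in THP-1. The others were NDUFA2 (-0.78), NDUFB7 (-0.77), ATP5G1 (-0.77), UQCRQ (-0.75), ATP5H (-0.66) and NDUFB6 (-0.65). Of these 9, 8 were also among the 26 that fell in KASUMI-1 (NDUFA11 was not, at an adjusted p of 0.0502). Among those that did not pass, the difference was 0.04 ± 0.18 (SE, adjusted p = 0.947) for NDUFB5, -0.03 ± 0.17 (SE, adjusted p = 0.951) for NDUFS1 and 0.40 ± 0.18 (SE, adjusted p = 0.215) for NDUFA5. The earlier harvest was at 6 h in one line and 24 h in the other, so line and time cannot be told apart in that pair. Leaving out any pair leaves 1 of the lines with 1 library per agent, so such a fit gives no test of the difference. The members' median difference was -0.48 without the THP-1 24 h pair and -0.40 without the THP-1 72 h pair. It was -0.37 without the KASUMI-1 72 h pair and -0.46 without the 6 h pair. With the exon length trend taken out 1 member was called, and with the GC trend as well 2.

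**Figure D3:**
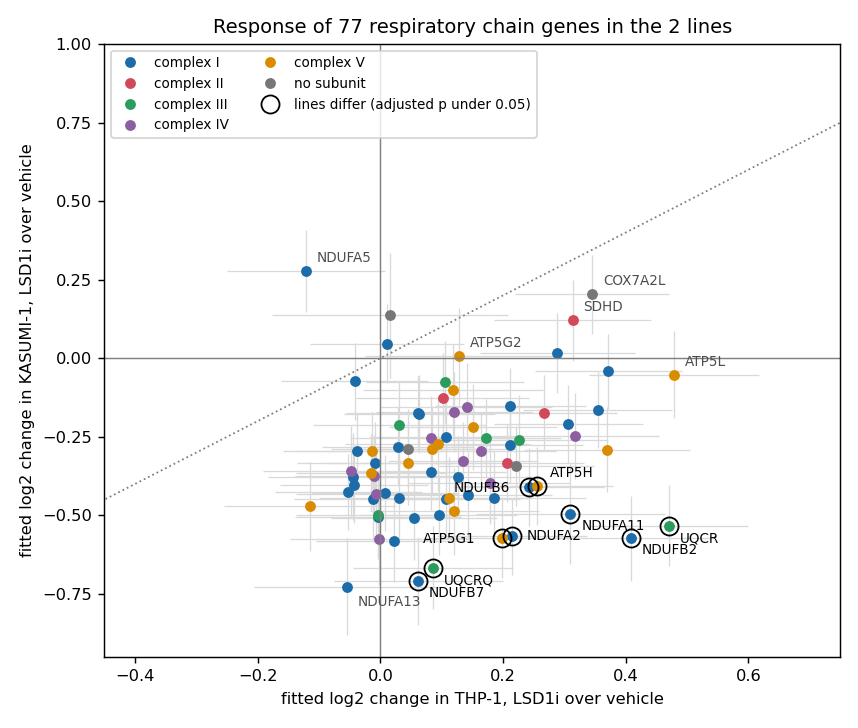
Fitted log2 change with LSD1i in THP-1 (horizontal axis) and KASUMI-1 (vertical axis) for 77 respiratory chain genes, with standard errors as grey lines, over 2 pairs of libraries per line. The dotted line marks equal change, and rings mark the 9 genes whose change differed between lines. Most points lie below the dotted line, UQCR farthest (difference -1.0), and ATP5L and UQCR lie farthest to the right.

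**Figure D4:**
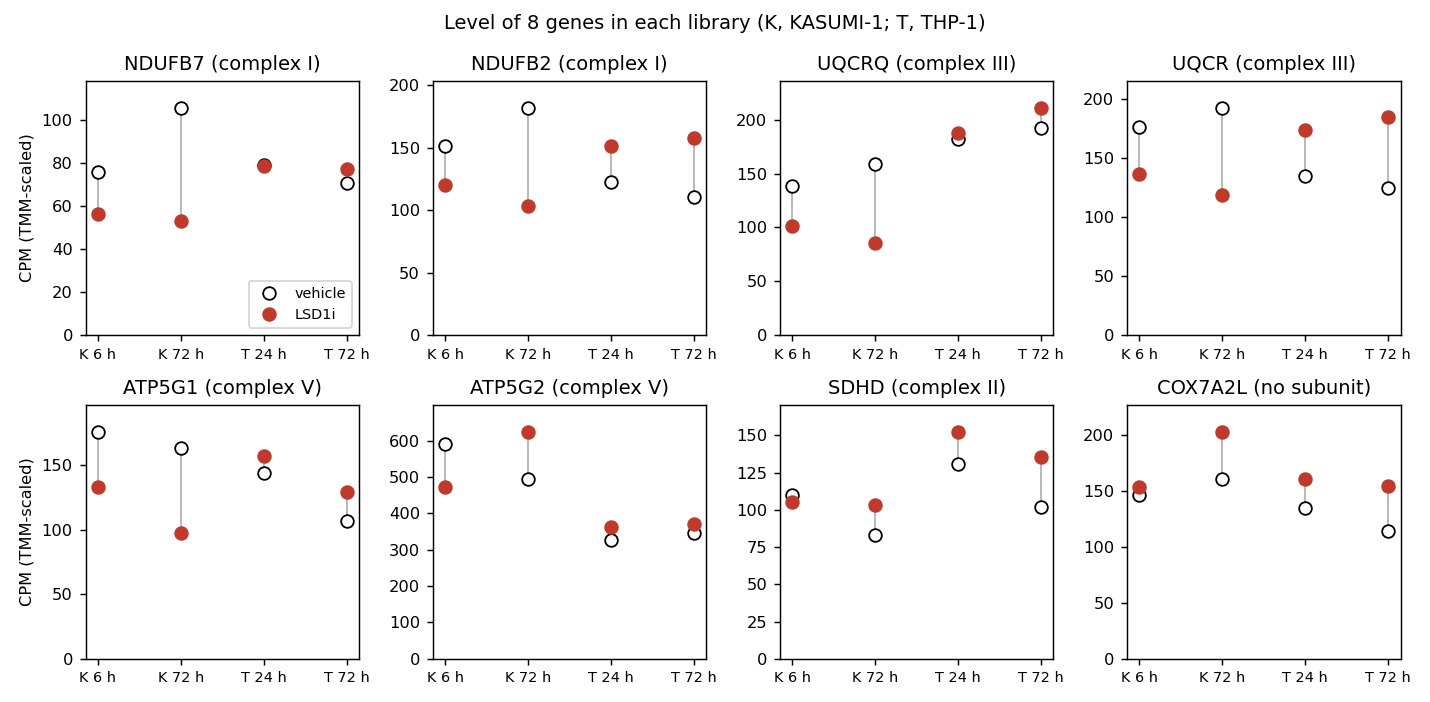
TMM-scaled CPM (vertical axis, from 0) of 8 genes in each of the 8 libraries, vehicle as open and LSD1i as filled circles, 1 library each (horizontal axis). NDUFB7, NDUFB2, UQCRQ, UQCR and ATP5G1 lie lower with LSD1i in both KASUMI-1 pairs, while ATP5G2 and SDHD change sign between 6 and 72 h and COX7A2L is higher with LSD1i in all 4 pairs.

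Without the inhibitor, some subunits of complexes I, III, IV and V stood higher in THP-1 and others of the same complexes stood lower. In the vehicle libraries (2 per line, at unequal times) 13 members were higher and 15 lower in THP-1 than in KASUMI-1 by edgeR's test, 28 of 78, against 30.1% of all genes higher, 26.4% lower and 56.5% either way. NDUFB10, a membrane arm subunit, was at 120.3 and 105 CPM in THP-1 and 46.2 and 46.1 CPM in KASUMI-1, a log2 difference of 1.29 ± 0.17 (SE, adjusted p = 8.37e-05). The core subunit NDUFS1 (1.15 ± 0.17 SE, adjusted p = 1.98e-04) was higher as well, as were NDUFA5 (0.91) and NDUFB1 (0.82). NDUFA9, a subunit at the junction of the arms, was the farthest the other way: 38 and 32 CPM in THP-1 against 96.8 and 102 CPM in KASUMI-1 (-1.50 ± 0.17 SE, adjusted p = 3.55e-05). NDUFB11, NDUFB8, NDUFA7, NDUFB2 and NDUFB6 were also lower, so that 7 complex I subunits were higher and 6 lower.

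In complex IV, COX7A2 (1.04 ± 0.15 SE, adjusted p = 2.01e-04), COX8A (0.81 ± 0.16 SE, adjusted p = 0.00147) and COX6C (0.50) were higher in THP-1 and COX6A1 (-0.94 ± 0.18 SE, adjusted p = 0.00104) and COX6B1 (-0.44) lower. COX7A2 was at 551 and 528 CPM in THP-1 and 257 and 272 CPM in KASUMI-1, with no overlap. In complex III, UQCRC2 (0.76) and UQCRH (0.58) were higher and UQCR (-0.50) lower. In complex V 6 of 15 were lower and 1 higher by edgeR, and 4 lower and 1 higher by DESeq2, against the 26.4% of all genes lower and 30.1% higher. Those lower included ATP5A1 (-0.75 ± 0.15 SE, adjusted p = 0.00147), the gamma subunit ATP5C1 (-0.70), ATP5G2 (-0.69), ATP5B (-0.39) and ATP5E, that is 4 of 5 subunits of the F1 head, and ATP5H. ATP5F1, of the peripheral stalk, was the higher one (0.59). No complex II subunit passed the test in this comparison by edgeR or DESeq2 (1 was higher at an unadjusted p under 0.05 by either). At that unadjusted threshold edgeR found 9470 of 15456 genes tested, in either direction. Leaving out a vehicle library leaves 1 for its line. The members' median difference was then -0.02 without the THP-1 72 h library and -0.16 without the THP-1 24 h one. It was -0.07 without the KASUMI-1 72 h library and -0.19 without the 6 h one. The number lower fell to 9 with the exon length trend taken out. With both trends out, 20 were higher.

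**Figure D5:**
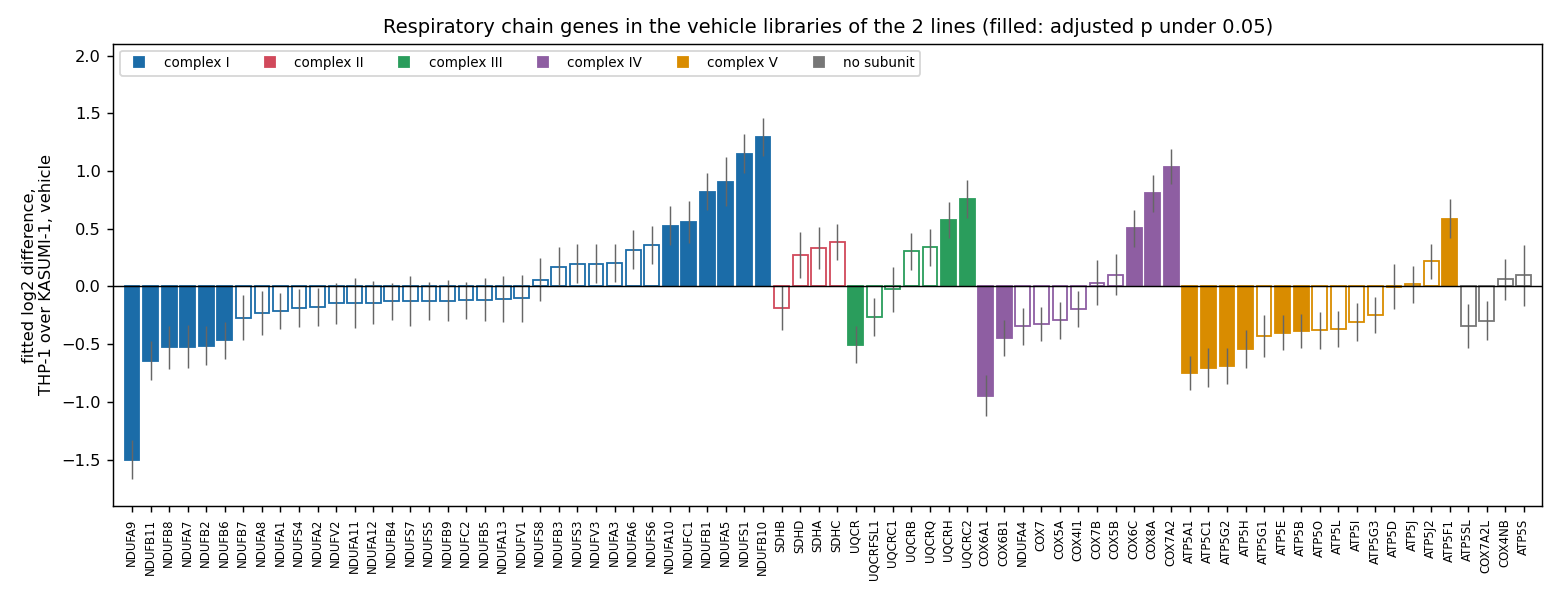
Fitted log2 difference between the vehicle libraries of THP-1 and KASUMI-1 (vertical axis, 0 at equal level) for 76 respiratory chain genes ordered by complex (horizontal axis), with standard errors over 2 libraries per line. Filled bars passed edgeR's test at an adjusted p under 0.05. NDUFA9 lies lowest (-1.50) and NDUFB10 highest (1.29), both in complex I, and most complex V bars point down.

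Several subunits of complex IV have tissue forms. COX4I2, COX6A2, COX7A1, COX7B2 and COX8C had under 10 reads in every library, while COX4I1, COX6A1, COX7A2, COX7B and COX8A averaged 576, 571, 361, 618 and 401 CPM per kb. Of the c-subunit genes, ATP5G2 averaged 349, ATP5G1 215 and ATP5G3 179 CPM per kb. Between the vehicle libraries of a line, the later time was also set over the earlier, each from 1 library per time. The members' median log2 ratio was 0.05 in KASUMI-1 and -0.13 in THP-1. Below 0 were 33 of 78 members in KASUMI-1 and 58 of 78 in THP-1, against 7996 and 7504 of 16060 genes tested.

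Of the 4 names that are no subunit, COX7A2L, which helps join complexes III and IV into supercomplexes, had log2 ratios of 0.07 and 0.33 in KASUMI-1 and 0.25 and 0.44 in THP-1, above 0 in all 4 pairs, and passed no test. COX4NB (now EMC8, of the endoplasmic reticulum membrane complex) had changes of -0.34 in KASUMI-1 and 0.22 in THP-1. ATP5SL (DMAC2, an assembly factor of complex I) had -0.29 and 0.04, and ATP5S (DMAC2L), at low level, 0.14 and 0.02. None of the 4 passed a test of the LSD1i response in either line.

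Other genes that the chain depends on were counted in the same fits, to be read against all genes tested. Of all genes tested, 5.09% fell and 7.02% rose in KASUMI-1 (median 0.02), and 2.85% fell and 6.51% rose in THP-1 (median -0.01). At an unadjusted p under 0.05, edgeR found 4329 of 16060 in either direction in KASUMI-1 and 3172 in THP-1. Of the mitochondrial ribosomal proteins, which make the subunits encoded in mitochondrial DNA, 28 of 76 (36.8%) fell and 0 rose in KASUMI-1, with a median of -0.36 (edgeR; 49 lower and 1 higher at an unadjusted p under 0.05, and 31 lower and 0 higher by DESeq2). In THP-1 0 fell and 1 rose (MRPL33, 0.42 ± 0.12 SE, adjusted p = 0.0312), with 0 lower and 3 higher at an unadjusted p under 0.05. Of these 76, 12 had a lower response in KASUMI-1 than in THP-1 by the test of the difference, and 0 a higher one (3.07% and 2.62% of all genes). With a median exon length of 1173.5 bases these 76 are short too. Among expressed genes other than the members, 20.3% up to 1 kb and 14% from 1 to 2 kb were called lower in KASUMI-1. The part of exon length in the counts of these 76 was not tested. Examples among the 76 in KASUMI-1 were MRPS12 (-0.77 ± 0.13 SE, adjusted p = 0.00101), MRPS34 (-0.74 ± 0.14 SE, adjusted p = 0.00255), MRPL12 (-0.71 ± 0.13 SE, adjusted p = 0.00268) and MRPL54 (-0.71 ± 0.14 SE, adjusted p = 0.00363). Of 31 assembly factors 4 (12.9%) fell and 1 (3.23%) rose in KASUMI-1: the copper chaperones SCO2 (-0.78 ± 0.13 SE, adjusted p = 0.00103) and COX17 (-0.49 ± 0.14 SE, adjusted p = 0.0264), the complex I factors ECSIT and FOXRED1, and LYRM7, a complex III factor (0.54 ± 0.15 SE, adjusted p = 0.0241). In THP-1 NDUFAF2 (0.68 ± 0.13 SE, adjusted p = 0.00197) and COX16 (0.67 ± 0.12 SE, adjusted p = 0.00138) rose, 6.45% of the 31. Of 17 TCA cycle genes 1 fell in KASUMI-1 and 1 rose in THP-1, IDH3A (0.47 ± 0.13 SE, adjusted p = 0.022), each 5.88% and so near the share over all genes. Among 4 carriers and subunits that the name patterns miss, CYC1 (-0.45 ± 0.13 SE, adjusted p = 0.0361) and NDUFAB1 (-0.50 ± 0.12 SE, adjusted p = 0.0124) fell in KASUMI-1, and NDUFA4L2 rose in THP-1 (0.97 ± 0.26 SE, adjusted p = 0.0244). Of 13 regulators of mitochondrial biogenesis 3 (23.1%) fell and 1 (7.69%) rose in KASUMI-1. GABPA, the DNA-binding part of GABP, rose (0.55 ± 0.13 SE, adjusted p = 0.0108), and ESRRA (-0.46 ± 0.13 SE, adjusted p = 0.0349), TFB2M (-0.46 ± 0.12 SE, adjusted p = 0.0203) and MYC (-0.42 ± 0.13 SE, adjusted p = 0.0428) fell. In THP-1 0 of the 13 passed edgeR's test (1 lower and 1 higher at an unadjusted p under 0.05, and 0 by DESeq2).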

How the data were processed

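RNA-seq of 8 libraries was deposited as 1 table of raw counts per gene. Per the file headers the authors counted reads with featureCounts 1.5.2 on Ensembl release 54 (NCBI build 36), with no strand option and without reads that map to several places, and the deposited columns hold whole-number counts. No expected counts, such as a model estimates, are among the deposited values: the authors counted whole reads. Per the submitters' processing notes, FastQC 0.10.0, TopHat2 2.0.10, Subread and edgeR were used with hg18.

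All columns were matched to samples by name, and groups came from the labels (line, agent and time). Counts were tested with edgeR 4.0.16 in R 4.3.3 (quasi-likelihood F-test, TMM, filterByExpr at a minimum count of 10), with a term for each pair of libraries of 1 line and time and an LSD1i term per line, which leaves 2 residual degrees of freedom. The pairing is that of line and time in the labels, which give no replicate numbers. A separate fit compared the vehicle libraries (15456 genes, 2 residual degrees of freedom). P-values were adjusted by Benjamini-Hochberg over all genes, at a threshold of 0.05. Ratios of a single pair used TMM-scaled CPM and a prior count of 2, and a pair call needed a log2 ratio of at least 0.32 either way, a mean of 2 CPM and an exact 95% binomial interval that excludes equality. Intervals cover counting error only. Alternatives were RLE scaling, no filter, DESeq2 1.42.0, no pair term, each pair left out, a prior count of 0.5 and a fold of 1.5. Trends in exon length and GC content, by loess with interpolation or evaluated directly, were added after seeing the data. GC content came from GENCODE transcripts matched by gene name and was known for 87.5% of genes tested and all 78 members.

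The members, the gene lists and the rule for naming genes were chosen with earlier results of these data known. Genes named were the highest and lowest per complex by level, up to 8 largest called changes each way per comparison, the 3 most extreme ratios each way per pair, paralog sets, core subunits, names that are no subunit, and up to 4 called genes of each other list. The other genes named in the text fall outside this rule and were chosen after their values were seen. A coordinate in the text is from the deposited table, except for promoter windows, which are RefSeq's on GRCh38.p14. The values of some genes that the naming rule covers are not reported here.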

Additional observations from a re-analysis of the deposited data

Results flagged for a closer look

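For 9 genes the test of the difference itself found the LSD1i response lower in KASUMI-1 than in THP-1. As log2 response in KASUMI-1 minus that in THP-1, UQCR was at -1.0, NDUFB2 at -0.98, NDUFA11 at -0.81, NDUFA2 at -0.78, NDUFB7 at -0.77, ATP5G1 at -0.77, UQCRQ at -0.75, ATP5H at -0.66 and NDUFB6 at -0.65. Of these, 5 belong to complex I, 2 to complex III and 2 to complex V.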

How the results depend on the processing

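Counts of members called are given as the value under each alternative after the value reported. In KASUMI-1, 26 called lower became 0 with no pair block, 2 with the exon length trend removed, 3 with length and GC trends removed, and 0 to 28 when each pair was left out in turn. In THP-1, 2 called higher became 0 with no pair block, 0 with the length trend removed, 1 with both trends removed, and 0 to 7 in leave-one-out fits. For the difference between lines, 9 became 19 by DESeq2, 0 with no pair block, and 1 and 2 with the length and both trends removed. In the vehicle comparison 15 lower became 9 with the length trend removed and 5 to 16 without each library, and 13 higher became 20 with both trends removed and 9 to 13 without each library. At 1.5-fold in place of a log2 ratio of 0.32, the pair counts went from 27 to 0 lower (KASUMI-1, 6 h), from 43 to 19 lower and from 3 to 0 higher (KASUMI-1, 72 h), from 1 to 0 lower and from 4 to 0 higher (THP-1, 24 h) and from 11 to 0 higher (THP-1, 72 h). The log2 change of ATP5D in KASUMI-1 turned from -0.47 to 0.0555 with both trends removed. With the trends evaluated by direct loess in place of interpolation, the length trend gave 3 lower in KASUMI-1, 0 higher in THP-1, 1 for the difference and 9 lower in the vehicle comparison, and both trends gave 3 lower in KASUMI-1, 2 for the difference, 21 higher in the vehicle comparison and 0.0537 for ATP5D. The cause of these changes was not tested. The leave-one-out ranges include fits that leave the line counted with 1 library per agent, or a line with 1 vehicle library. Such fits give no test of a call, so the ranges are no check on the calls. RLE scaling and DESeq2 kept the side of the threshold for all 26 KASUMI-1 genes, and testing without a filter kept it for 25. Medians per pair and complex were also taken with RLE scaling, a prior count of 0.5 or structural subunits only. These medians moved by less than the counting error of a typical single member. The counting error of a median itself was not computed. With 1 library per line, agent and time, a log2 ratio near 0.32 in a single pair has no replicate check, and COX6B2, at 9 to 25 reads, is limited by depth.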

Other observations

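After the results had been seen, the members were also grouped by chromosome. Of the 78 genes 12 lie on chromosome 19 in the deposited table, and 5 of these (ATP5D, NDUFB7, NDUFA13, NDUFS7 and UQCR) fell with LSD1i in KASUMI-1 (41.7%, median log2 change -0.41). Of the 66 elsewhere 21 fell (31.8%, median -0.30). Among other genes tested, 9.16% of the 1146 on chromosome 19 fell (median -0.10) and 4.62% of the 14836 elsewhere (median 0.03). The median GC content of transcripts was 57.3% for the members on chromosome 19 and 47.4% for the rest. The part of GC content in this was not tested.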
